A study of Saccharomyces cerevisiae with 4 samples.

Results

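The transcripts of 10 Saccharomyces cerevisiae genes of amino acid sensing and uptake were followed in cells that lack HAA1. They are the sensor genes SSY1, PTR3 and SSY5, the zinc finger factor genes STP1, STP2, STP3 and STP4, and the permease genes AGP1, BAP2 and BAP3. The genes were found by their symbols in the array's annotation, and they took up 16 of 8832 spots and were 10 of 5574 named genes. The set was chosen by the low ratio of STP4 over both copper conditions, which was already known, and completed with genes of the same pathway by name. The null over wild type ratios of all 10 genes are therefore given as a description without p-values. Where calls of the fit over all genes are counted among the 10, they come from the contrast that chose the set, and nothing is read from them.

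Budding yeast senses amino acids outside the cell with a complex in the plasma membrane. Ssy1, a protein built like a permease but without known transport activity, and Ptr3, a peripheral partner, relay the signal to the protease Ssy5. Ssy5 then cuts an inhibitory stretch from the transcription factors Stp1 and Stp2, which enter the nucleus and activate permease genes such as AGP1, BAP2 and BAP3. The activating step is thus a cleavage of protein, which transcript ratios do not measure. Stp3 and Stp4 are paralogs that share the zinc finger domain, and their targets are less well defined.

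Each of the 4 spotted arrays set Cy5-labelled total RNA from lpz8 null cells against Cy3-labelled total RNA from wild type. The null cells came from low copper on 2 arrays and from high copper on the other 2, and replicate 2 of low copper and replicate 1 of high copper carry the mark of a repeat. The gene lpz8 was read as HAA1, a copper-fist transcription factor, from the series title and from its spot, which read -7.35 on low copper replicate 2 and -6.96 and -4.15 in high copper and was not measured on low copper replicate 1. Strain, medium, copper concentrations, the copper condition of the wild type and the separation of cultures were not given in the labels, so the spread between arrays may be technical. No array had its dyes exchanged, and a dye effect of a single gene and the genotype cannot be told apart.

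Values below are log2 ratios with the null strain in the numerator, centred on the median of each array, so that a transcript scarcer in null cells has a value under 0. Arrays held 7254 to 8409 values, and 5137 genes had a spot measured on all 4. The count of 7254 was that of low copper replicate 1, which held the fewest by a wide margin. The centred ratios of these genes correlated at 0.46 between the low copper arrays and at 0.71 between the high copper arrays. Low copper replicate 1 correlated at 0.31 and 0.39 with high copper replicates 1 and 2. For low copper replicate 2 these were 0.45 and 0.48, about as high as with the other low copper array. Of the 16 spots, 13 had values on all 4 arrays, and the mean of such spots is the value of each gene. All 10 genes had at least 1 such spot.

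Among the zinc finger factors, STP4 was far lower in null cells and its paralog STP3 moderately lower, while STP1 and STP2 stayed near 0. STP4 stood at -3.81 and -1.44 on low copper replicates 1 and 2 and at -2.88 and -3.11 on high copper replicates 1 and 2. The low copper arrays enclosed the high copper arrays, with the lowest and the highest of the 4 values. The mean of -2.81 ± 0.995 (SD, n = 4) was a 7.02-fold lower level, and only 3 of the 5137 genes had a lower mean. In high copper the mean was -3.00 ± 0.16 (SD, n = 2), a 7.98-fold lower level. In low copper it was -2.63 ± 1.67 (SD, n = 2), and its arrays lay 2.37 log2 units apart.

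A further STP4 spot, without a value on low copper replicate 1, read -1.11 on the remaining low copper array and -3.18 and -2.78 on replicates 1 and 2 of high copper. Both spots therefore placed low copper replicate 2 as the least lowered of the arrays that they shared. The value of -3.81 rested on 1 spot of 1 array.

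STP3 was below 0 on every array, at -0.59 and -0.33 in low copper and at -0.76 and -0.91 in high copper. As deposited, the high copper arrays lay below the low copper arrays. This separation was lost once a displaced run of spots on high copper replicate 1, described below, was moved back, which put that array at -0.51, between the low copper arrays. As deposited, its mean was -0.65 ± 0.25 (SD, n = 4), or 1.56-fold lower. STP4 was lower than STP3 on each array. As deposited, STP4 minus STP3 was -3.22, -1.11, -2.13 and -2.20 log2 units in the order of the arrays above. With the run moved back, high copper replicate 1 read -2.88 for STP4 and -0.51 for STP3. Spotted probes of paralogs can share hybridisation, which was not tested.

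**Figure D1:**
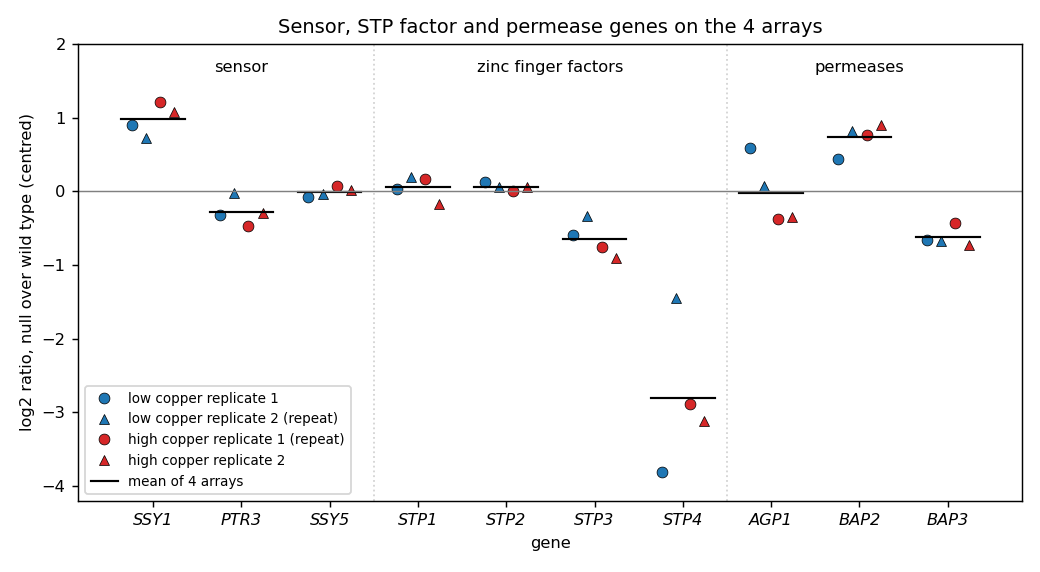
Centred log2 ratio of null over wild type (vertical axis) for each gene (horizontal axis) on the 4 arrays; circles and triangles are single arrays, blue for low and red for high copper, and black lines are the mean of 4 arrays. STP4 spans -3.81 to -1.44, SSY1 and BAP2 lie above 0 and STP3 and BAP3 below 0 on all 4 arrays, and AGP1 lies above 0 in low and below 0 in high copper.

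STP1 and STP2 encode the factors that Ssy5 releases. STP1 stood at 0.036 and 0.19 in low copper and at 0.16 and -0.18 in high copper, with a mean of 0.054 ± 0.17 (SD, n = 4). STP2 stood at 0.13, 0.065, -0.001 and 0.061 in the same order, with a mean of 0.062 ± 0.051 (SD, n = 4). Both genes had arrays on either side of 0. A second STP2 spot, measured on 2 arrays only, read -0.23 on low copper replicate 2 and -0.81 on high copper replicate 1, where the complete spot read 0.065 and -0.001. The STP2 spots thus disagreed most on high copper replicate 1, and the level of STP2 on that array is uncertain.

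One spot of STP3 and the only spot of STP1 lay in a run of 504 spots whose values on high copper replicate 1 were displaced. Within the run, the Spearman correlation of that array with the median of the others was -0.01 without a shift and 0.575 with a shift of 24 spots, and outside the run it was 0.568 without a shift. The STP3 spot in the run read -1.01 as deposited and -0.52 with the run moved back, beside -0.50 at the STP3 spot outside the run. With the run moved back, the high copper mean of STP3 was -0.71 and that of STP1 was -0.26, against -0.008 for STP1 as deposited. The STP1 value on that array changed from 0.16 to -0.34. No spot of the other 8 genes lay in the run.

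**Figure D2:**
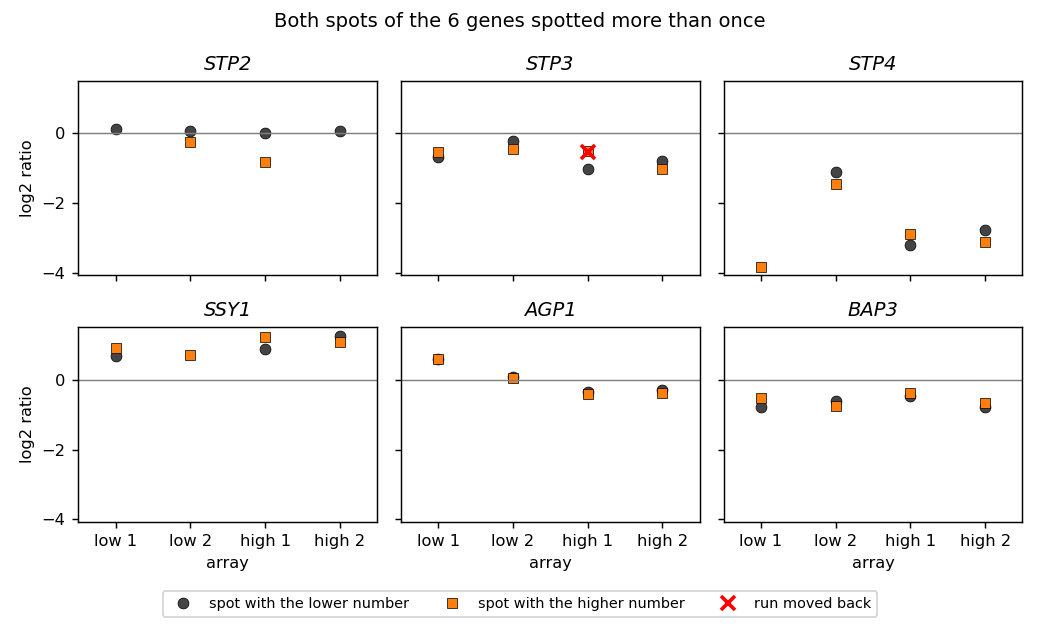
Centred log2 ratio (vertical axis) on each array (horizontal axis) for both spots of the 6 genes spotted more than once; grey circles and orange squares are the spots of a gene, and the red cross is the STP3 spot of the displaced run after the run was moved back. The AGP1 spots nearly coincide on each array, the STP2 spots differ on high copper replicate 1, and the moved STP3 spot (-0.52) lies on the other STP3 spot (-0.50).

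The 3 sensor genes did not move as a unit. SSY1 was higher in null cells on every array, PTR3 was slightly lower on every array, and SSY5 stayed near 0. SSY1 stood at 0.90 and 0.72 in low copper and at 1.21 and 1.08 in high copper, with the high copper arrays above the low copper arrays. Its mean of 0.98 ± 0.21 (SD, n = 4) was a 1.97-fold higher level, and 99.3% of the genes tested had a lower mean. A second SSY1 spot read 0.67 on low copper replicate 1 and 0.87 and 1.25 on the high copper arrays, and had no value on low copper replicate 2.

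PTR3 stood at -0.32 and -0.028 in low copper and at -0.47 and -0.29 in high copper, with a mean of -0.28 ± 0.18 (SD, n = 4). The copper conditions overlapped, and low copper replicate 2 was close to 0. SSY5, the gene of the protease, stood at -0.081 and -0.034 in low copper and at 0.072 and 0.016 in high copper, with a mean of -0.007 ± 0.066 (SD, n = 4). SSY1 exceeded SSY5 by 0.98 ± 0.17 (SD, n = 4) and PTR3 by 1.25 ± 0.39 (SD, n = 4) log2 units.

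The 3 permease genes took 3 different courses. BAP2, which encodes a transporter of leucine, isoleucine and valine, was higher in null cells on all 4 arrays. Its ratios were 0.44 and 0.82 in low copper and 0.76 and 0.90 in high copper, so the conditions overlapped. The mean was 0.73 ± 0.20 (SD, n = 4), a 1.66-fold higher level.

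BAP3, the paralog of BAP2 and also a branched-chain amino acid transporter gene, was lower on all 4 arrays. It stood at -0.66 and -0.68 in low copper and at -0.43 and -0.73 in high copper, again with overlap. Its mean was -0.62 ± 0.13 (SD, n = 4), or 1.54-fold lower. BAP2 exceeded BAP3 on each array, by 1.10 log2 units on low copper replicate 1 to 1.63 on high copper replicate 2. Shared hybridisation between these paralogs was not tested either.

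AGP1 encodes a permease of broad specificity for amino acids. It stood at 0.59 and 0.066 in low copper and at -0.38 and -0.34 in high copper, so that both low copper arrays were above 0 and both high copper arrays below it. Its mean over all arrays was -0.016 ± 0.45 (SD, n = 4). The AGP1 spots agreed closely, since their means differed by 0.039 log2 units against a median of 0.094 over the 805 genes with more than 1 complete spot.

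Limma fitted a mean for each copper condition to all 5137 genes, and an adjusted p (Benjamini-Hochberg over all genes) under 0.05 was the threshold. Over both conditions 3 of the 10 genes lay past the threshold below 0 (STP4, STP3 and BAP3) and 2 above it (SSY1 and BAP2), where 11.7% of all genes tested lay past it in either direction. The STP4 call repeats the value that chose the set. In low copper alone 0 of the 10 lay past it, beside 0.662% of all genes. In high copper alone 2 did, SSY1 and STP3, beside 2.57%. The median of the 10 means was -0.011 and that of all genes -0.015. The 4 arrays shared their sign for 6 of the 10 genes and for 41.6% of all genes.

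The calls of the fit depended on single arrays, for these 10 genes as for all genes. Over both conditions 0 of the 10 genes lay past the threshold without high copper replicate 1 or without high copper replicate 2. The count also moved, for the 10 as for all genes, when a low copper array was left out. Such a fit leaves 1 array in its condition, so its counts are not read. A block term for the repeat arrays left 0 of the 10 over both conditions, and 36 of all genes. The counts in low copper alone and in high copper alone also depended on which array was left out. With the displaced run moved back, the 2 genes past the threshold in high copper alone were SSY1 and BAP2, and STP3 was not among them.

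The difference between the copper conditions was not used to choose the genes and was tested. None of the 10 differed past the threshold in the limma fit, and the same was true of all 5137 genes (0 called, or 0%). At an unadjusted p under 0.05 it was 1 of the 10, AGP1, and 792 of all genes (15.4%). No other tool was run on this contrast. High and low copper arrays did not overlap for 5 of the 10 genes and for 52.3% of all genes, so the share among the 10 was near that background. With the displaced run moved back it was again 5 of the 10, with STP1 in place of STP3, and 52.7% of all genes.

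Of the 10 genes AGP1 differed most, lower in high than in low copper, with a difference of -0.69 ± 0.21 (SE), a 95% interval of -1.25 to -0.12 and an adjusted p of 0.288 in the limma fit. Both high copper arrays lay below both low copper arrays. Over 12 alternatives the difference ran from -0.95 to -0.43. The value of -0.95 came from leaving out low copper replicate 2. That fit has no replicate in low copper, so only the size is given. In the alternatives that kept every array the limma adjusted p of AGP1 ran from 0.192 to 0.355.

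STP3 differed by -0.37 ± 0.15 (SE), with an interval of -0.77 to 0.028 and a limma adjusted p of 0.349. With the displaced run moved back the difference was -0.25. STP1, whose only spot lies in that run, differed by -0.12 as deposited (limma adjusted p = 0.709) and by -0.37 with the run moved back (0.289), within a range of adjusted p from 0.289 to 0.974 over 12 alternatives. SSY1 differed by 0.33 ± 0.13 (SE), with an interval of -0.017 to 0.68 and a limma adjusted p of 0.34. The intervals of STP3 and SSY1 did not exclude 0.

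STP4 had the widest interval, -2.62 to 1.87 around a difference of -0.37, with a limma adjusted p of 0.822. The data therefore allow a copper difference of STP4 of several fold in either direction. Without low copper replicate 2 the difference was 0.81, and without low copper replicate 1 it was -1.71. Either fit leaves 1 low copper array, so only the size is given. No alternative that kept all 4 arrays had STP4 past the threshold. For PTR3, SSY5, STP2, BAP2 and BAP3 the differences lay between -0.21 and 0.20, with limma adjusted p between 0.536 and 0.757.

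**Figure D3:**
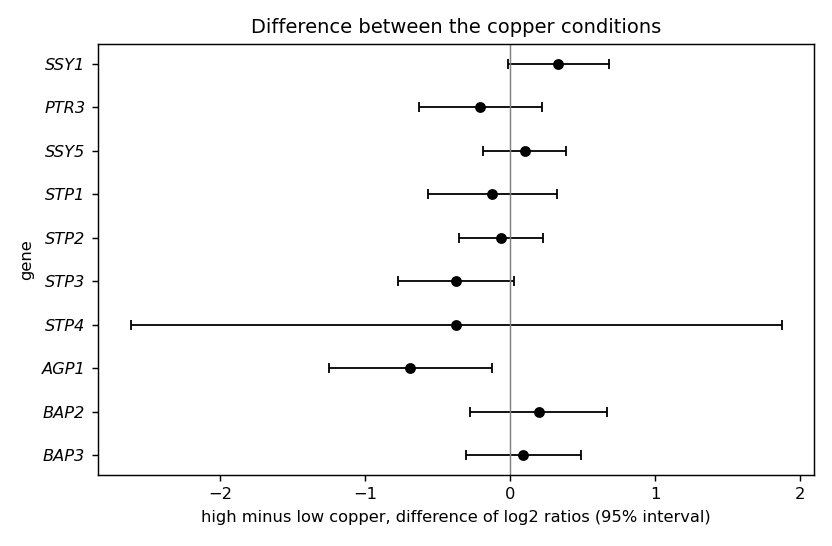
Difference between the mean log2 ratios of high and low copper (horizontal axis) for each gene (vertical axis); points are limma estimates from 2 arrays per condition and bars are 95% intervals. The AGP1 interval (-1.25 to -0.12) lies below 0, the STP4 interval (-2.62 to 1.87) is the widest, and no gene passed the adjusted threshold.

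Genes that work around the sensor were listed by role, with earlier results of these data known. Their calls and adjusted p-values below are therefore a description, and nothing is read from the counts. The lists hold 54 genes, of which 48 were measured on all 4 arrays. Of the 11 partners of the sensor, 0 passed the limma threshold over both conditions, within either condition or between them, and their median was 0.044. At an unadjusted p under 0.05 over both conditions it was 1, ASI3, beside 35.6% of all genes. ASI3, a subunit of an inner nuclear membrane ubiquitin ligase that limits uncut Stp1 and Stp2, stood at -0.27 ± 0.12 (SD, n = 4, limma adjusted p = 0.0706). SKP1, a core subunit of the ubiquitin ligase that contains Grr1, stood at 0.19 ± 0.16 (SD, n = 4, limma adjusted p = 0.15). The count of 0 did not hold with arrays left out. DAL81, a factor that acts with Stp1 and Stp2, passed in high copper without low copper replicate 1 and on the high copper arrays alone. Without low copper replicate 2 it passed over both conditions, in high copper and between conditions, and ASI2, a further subunit of the Asi ligase, passed in low copper. That fit leaves 1 low copper array, and its calls rose over all genes too.

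Of 6 further permease genes listed as under the sensor, 1 rose over both conditions and 0 fell, with a median of -0.065. DIP5, a transporter gene for glutamate and aspartate, was at 0.83 and 0.60 in low copper and at 0.20 and 0.12 in high copper. Its values were above 0 on all 4 arrays, with a mean of 0.43 ± 0.33 (SD, n = 4) and a limma adjusted p of 0.0364. GNP1, the paralog of AGP1 and a glutamine permease gene, was picked for naming after its values were seen and stood at -0.060 ± 0.15 (SD, n = 4).

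Of the 11 other amino acid permease genes, 8 were tested, and 3 rose and 0 fell over both conditions, with a median of 0.055. UGA4, which encodes a transporter of gamma-aminobutyrate, stood between 0.95 (high copper replicate 1) and 1.83 (high copper replicate 2). It was above 0 on every array, with a mean of 1.29 ± 0.41 (SD, n = 4, limma adjusted p = 0.0305). AGP2, a gene of carnitine and polyamine transport, stood at 0.64 ± 0.26 (SD, n = 4, 0.0235). MMP1, the S-methylmethionine permease gene, stood at 0.51 ± 0.44 (SD, n = 4, 0.0443), and its low copper values of 1.07 and 0.64 exceeded those of 0.21 and 0.12 in high copper.

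Of the 12 genes of Leu3 and branched-chain amino acid synthesis, 2 were called lower and 1 higher in the mean over both conditions. Their median was -0.054. LEU1, the isopropylmalate isomerase gene of leucine synthesis, fell on all 4 arrays (-0.56 ± 0.24, SD, n = 4, limma adjusted p = 0.028), and LEU4, the gene of the first committed enzyme of leucine synthesis, rose on all 4 (0.29 ± 0.057, SD, n = 4, 0.0483). ILV5, an enzyme gene of isoleucine and valine synthesis, stood at 0.15 and 0.037 in low copper and at -0.81 and -0.99 in high copper. Its adjusted p was 0.0382 over both conditions and 0.0314 in high copper alone in the limma fit, while the difference between the conditions did not pass (0.224).

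Of 9 genes of permease trafficking, 7 were tested and 1 rose over both conditions, with a median of 0. SHR3, a chaperone gene for the exit of amino acid permeases from the endoplasmic reticulum, stood at 0.17 and 0.70 in low copper and at 1.40 and 1.30 in high copper. Its mean was 0.89 ± 0.57 (SD, n = 4, limma adjusted p = 0.0265), and it also passed in high copper alone (0.0356). Of 5 factors of nitrogen catabolite repression 4 were tested and 0 passed over both conditions, beside 11.7% of all genes. At an unadjusted p under 0.05 over both conditions it was also 0, beside 35.6%. GAT1 stood at 0.14 ± 0.15 (SD, n = 4) and URE2 at -0.14 ± 0.12 (SD, n = 4), with limma adjusted p of 0.165 and 0.238.

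In all 6 of these 48 genes were called higher and 2 lower in the mean over both conditions, beside 6.44% and 5.24% of all genes. The 8 calls were all lost with a block term for the repeat arrays, which left 36 of all genes, against 600 without the block. Without high copper replicate 1 or without high copper replicate 2 the calls were lost too, for all genes alike. Either of these fits leaves 1 high copper array. Leaving out low copper replicate 1 lost some of the 8, and leaving out low copper replicate 2 added other genes. Either fit leaves 1 low copper array. Without a copper term UGA4, AGP2 and LEU1 remained. MMP1 and LEU4 missed the threshold with genes on at least 3 arrays and with the displaced run left out, and LEU4 also without centring and with all spots averaged. The high copper call of SHR3 was lost without centring. Between conditions 0 of the 48 genes passed, which depended on low copper replicate 2 being kept.

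**Figure D4:**
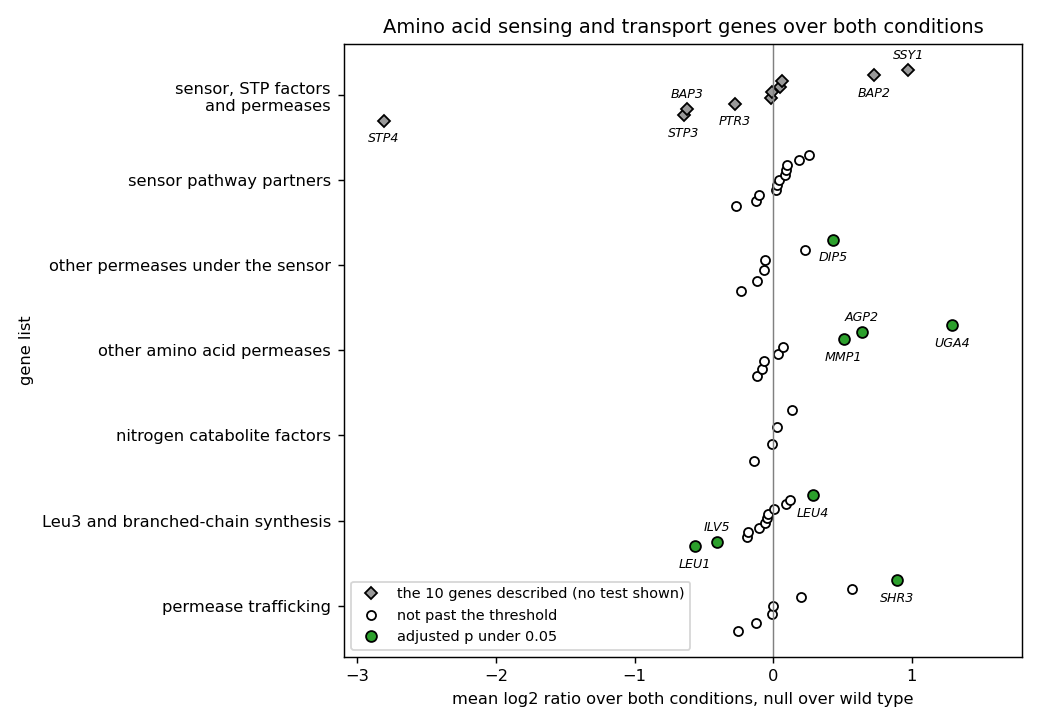
Mean log2 ratio over both conditions (horizontal axis) for the 10 genes described and for 6 lists of related genes (vertical axis); each point is a gene, grey diamonds carry no test, green circles passed the limma threshold and open circles did not. STP4 (-2.81) lies far from all other genes drawn, and UGA4 (1.29) and SHR3 (0.89) are the highest called genes of the lists. The sensor partners hold no called gene, where 11.7% of all genes were called.

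Genes whose 4 ratios lay nearest to those of STP4, by Euclidean distance over the 4 arrays among 5127 genes, were TPO2 (1.63), TDA6 (1.85), YGP1 (2.16), YLR297W (2.28) and NRE1 (2.37). TPO2 stood at -3.25, -2.79, -3.55 and -3.40, so it lacked the weak value that STP4 had on low copper replicate 2. NRE1 stood between -2.19 and -1.86 on all arrays. These distances describe likeness of 4 values only.

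The permease genes, whose ratios lay nearer to 0 than those of STP4, had closer neighbours. Distance depends on how many genes have ratios of that size, so it is not compared between these genes. PUN1 (0.14), SWT21 (0.17) and AMN1 (0.18) were nearest to AGP1, and PUN1 read 0.66 and 0.18 in low copper and -0.37 and -0.29 in high copper. MGA1 (0.32), GLC3 (0.35) and CUP1-1 (0.36) were nearest to BAP2. YJR149W (0.21), VHS1 (0.22) and DSD1 (0.25) were nearest to BAP3.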

How the data were processed

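Per the labels, RNA of null and wild-type yeast was hybridised on 4 arrays. The deposited table holds 1 log2 ratio per spot and array; how the authors normalized it, its scale and its direction are not given in the sources used here. A log2 base was inferred, since on high copper replicate 2, 29 of 59 values beyond 2.9 in size matched the log2 of a whole ratio within 0.0011 (1.8 by spacing alone), against 5 for natural logs (9.0). Direction was taken as Cy5 over Cy3 from the dye labels. The median of the deposited values was -0.15 and -0.067 on the low copper arrays and -0.009 and 0 on the high copper arrays. Intensities were not used here, so signal above background is unknown, and the number of arrays limits precision.

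Of the spots, 6956 had 1 gene name, 0 several and 1876 none; all names were found in RefSeq assembly R64. Arrays were centred on spots measured on all 4, such spots were averaged per gene, and limma 3.58.1 in R 4.3.3 (lmFit, eBayes) fitted 5137 genes with 2 residual and 2.22 prior degrees of freedom. The fit was tested on simulated data. Replicates were numbered in record order. The 10 genes and the lists were chosen with earlier results of these data known. The genes named were the 10, HAA1, list genes past the threshold (or the 2 with the smallest p), and the 5 genes nearest to STP4 and 3 nearest to each permease gene. GNP1, ASI2 and DAL81 were named after their values were seen. So were the genes SAM3, ILV6, MUP1, GAP1, HIP1, ILV3, NPR1, ALP1, LEU9, CDC53 and ALY1 of the closing observations. Alternatives covered centring, scaling, missing values, spots, the copper term, a block of repeat arrays, the displaced run, arrays left out and a fold rule.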

Additional observations from a re-analysis of the deposited data

Results flagged for a closer look

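AGP1 and SSY5 had opposite signs in the copper conditions on every array. AGP1 was above 0 on both low copper arrays and below 0 on both high copper arrays, with a difference of high minus low copper of -0.69. SSY5 was below 0 in low and above 0 in high copper, with a difference of 0.10 and no array further than 0.081 from 0. Neither difference passed the limma threshold (adjusted p of 0.288 and 0.632). Opposite signs of this kind were seen for 2 of the 10 genes and for 766 of all 5137 genes (14.9%). With the displaced run moved back, STP1 had them as well (0.036 and 0.19 in low copper, -0.34 and -0.18 in high copper), which made 3 of the 10, beside 14.7% of all genes.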

How the results depend on the processing

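Of the 10 genes, those past the threshold over both conditions were the same 5 without centring, centred on all spots, scaled to equal spread, with genes on at least 3 arrays, without a copper term, with the run moved back or left out, and by single spots. These settings called 292 to 894 of all genes, against 600. The contrast is the one that chose the set, so nothing is read from the 5 calls. No paired analysis beyond the replicate block of repeat arrays was possible because the labels carry no replicate numbers. With that block 0 of the 10 (36 of all genes, against 600) were past it over both conditions, 0 of the 10 (0 of all, against 132) in high copper and 0 of all (against 34) in low copper. The rule of at least 1 log2 unit on every array gave 1 of the 10 (STP4) and 27 genes over both conditions, 1 and 54 in low copper, 67 genes in high copper and 98 genes between conditions (against 0). Without a copper term 292 genes passed. In low copper 19 genes passed without centring, 61 scaled, 63 with the run moved back (1 of the 10, SSY1, among them) and 0 from its own arrays. In high copper 363 passed scaled, 78 with genes on at least 3 arrays, 202 with the run moved back, and 898 from its own arrays, of the 10 then 7. There 1 of the 10 passed (SSY1, against 2) without centring, centred on all spots, with genes on at least 3 arrays, with the run left out, by single spots, and with all spots averaged, a setting chosen after seeing the data. With the run moved back 2 genes differed between conditions. Leaving out 1 array gave 0 to 1900 genes and 0 to 6 of the 10 over both conditions, 0 to 1374 and 0 to 6 in low, 0 to 837 and 0 to 7 in high copper, and 0 to 702 and 0 to 2 between conditions. Signs of the difference between conditions turned for STP2 without centring (0.044), and with an array left out for STP1 (-0.29 to 0.047), STP4 (-1.71 to 0.81) and BAP3 (-0.057 to 0.24). The cause was not tested, except that single arrays left out or a block leave 1 residual degree of freedom. Signal over background was unknown.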

Other observations

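Several genes of amino acid supply outside the 10 had the same pattern of signs as AGP1, above 0 on both low copper arrays and below 0 on both high copper arrays. They were chosen after their values were seen, and 12 of the 48 list genes had opposite signs in either order, beside 14.9% of all genes. The difference of high minus low copper was -0.99 ± 0.13 (SE) for ILV5, -0.91 ± 0.28 for the S-adenosylmethionine permease gene SAM3, -0.84 ± 0.25 for ILV6, a regulatory subunit gene of branched-chain amino acid synthesis, and -0.60 ± 0.15 for the methionine permease gene MUP1. Differences in this order were smaller for the permease genes GAP1 (-0.375 ± 0.18) and HIP1 (-0.133 ± 0.125). The same held for ILV3 (-0.287 ± 0.189) and the sensor partner gene ASI2 (-0.351 ± 0.145). The opposite order was seen for NPR1, a kinase gene of permease control (0.42 ± 0.11), and for the permease gene ALP1 (0.42 ± 0.15). It was also seen for LEU9 of leucine synthesis (0.31 ± 0.11) and for the sensor partner gene CDC53 (0.24 ± 0.12). None of these genes, in either order, passed the limma threshold, with adjusted p between 0.224 and 0.597. Without low copper replicate 2 the differences were -1.05 for ILV5, -1.27 for SAM3, -1.16 for ILV6, -0.76 for MUP1 and 0.42 for NPR1. That fit has no replicate in low copper, so only the sizes are given. No alternative that kept every array had ILV5, SAM3, ILV6, MUP1 or NPR1 past the threshold between conditions.

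Values of 2 list genes disagreed between arrays of 1 condition. DAL81, a factor that acts with Stp1 and Stp2 at permease genes, stood at 0.23 and -1.67 in low copper and at 1.09 and 1.39 in high copper. ALY1, an arrestin gene of permease sorting, stood at 3.69 on low copper replicate 1 and between -0.74 and -0.31 on the other 3 arrays.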
